A study of Mus musculus with 6 samples.

Results

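Enteroendocrine cells are the hormone-secreting cells of the gut epithelium, and 9 genes that build and mark them were followed here by gene symbol, out of 23366 genes in the files. They are the transcription factors *Neurog3*, *Neurod1*, *Insm1*, *Pax4*, *Isl1* and *Rfx6*, the granule proteins chromogranin B (*Chgb*) and chromogranin A (*Chga*), and the hormone secretin (*Sct*). RNA was sequenced from EpCAM-positive epithelial cells sorted from the small intestine of E13.5 mouse embryos. The genotype Shh-cre-egfp:Tcf7l1 lox/lox (mutant) and the wild type had 3 libraries each, every one made from 500 cells and amplified over 15 PCR cycles. Cre in the mutants is made from the *Shh* locus, which is active in gut epithelium. The label of the wild type group names neither Cre nor a floxed allele. The loss of *Tcf7l1* and the presence of the Cre allele at *Shh* therefore cannot be told apart. *Shh* itself had 439, 582 and 515 counts in the wild type libraries and 179, 210 and 166 in the mutants. Whether this difference bears on the values below was not tested.

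NEUROG3 is the basic helix-loop-helix factor that commits a secretory progenitor to the enteroendocrine lineage, and it is made only for a short time in each cell. NEUROD1, INSM1, PAX4, ISL1 and RFX6 act downstream of it and guide the differentiation of the hormone-producing subtypes. Chromogranins pack hormones into dense-core granules and are used as general markers of endocrine cells. The question put to these libraries was how the loss of TCF7L1, a mostly repressive factor of the WNT pathway, bore on this gene set in the embryonic epithelium. In bulk RNA of this kind, fewer enteroendocrine cells and less RNA per cell cannot be told apart.

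The libraries held between 18216537 and 20397278 counts. The wild type libraries had 508, 508 and 383 counts of *Tcf7l1* and the mutants 40, 31 and 66, a log2 fold change of -3.16 (SE 0.26, adjusted p = 4.2e-07). *Epcam*, the antigen of the sort, had a mean of 51902 normalized counts in the wild type and of 61570 in the mutants. The Y-linked *Ddx3y* had 1837 to 2254 counts in the wild type libraries and 0 in the mutants, while *Xist* had 0 in the wild type and 229 to 424 in the mutants, so embryo sex and genotype cannot be told apart in any value below. Means, SDs and normalized counts are on the scale of counts after TMM scaling, SD is between the 3 libraries of a group, and p-values are from the quasi-likelihood test of edgeR, adjusted by the Benjamini-Hochberg method over the 12501 genes that passed the filter on low counts. A gene was called where the adjusted p was under 0.01, the log2 fold change at least 0.5 in size and the mean normalized count of all libraries at least 50.

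In mm9, the build of the files, the 9 genes lie on 6 chromosomes: *Neurog3* at chr10:61595838-61597511, *Rfx6* at chr10:51397562-51450235, *Neurod1* at chr2:79292678-79296908, *Chgb* at chr2:132607014-132620815, *Insm1* at chr2:146047657-146050752, *Pax4* at chr6:28392334-28399353, *Sct* at chr7:148464230-148465032, *Chga* at chr12:103793179-103803237 and *Isl1* at chr13:117088478-117099896. All 9 are protein-coding. None has another gene of at least 95% identity over 50% of its transcript, while 17.7% of the exon bases of *Neurog3* are shared with *2010107G23Rik* on the opposite strand, and 7.37% of those of *Neurod1* with *Cerkl*. Whether reads were counted by strand is not given in the sources used here. *2010107G23Rik* had 448 counts in wild type 1, where *Neurog3* had 3.

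The 250 bases before the start are printed for the factor that opens the cascade, for the factor with its own wild type pattern and for the hormone without a detected change, since these are the genes whose RefSeq start coincides with the start in the mm9 annotation. The sequences are from the RefSeq promoter table (GRCm38.p6) and were placed in mm9 by exact match, at chr10:61595588-61595837 on the plus strand (*Neurog3*), chr13:117099897-117100146 on the minus strand (*Isl1*) and chr7:148465033-148465282 on the minus strand (*Sct*). Each is written 5′ to 3′ on the gene's strand, and capitals mark the letters CAGATG.
Neurog3: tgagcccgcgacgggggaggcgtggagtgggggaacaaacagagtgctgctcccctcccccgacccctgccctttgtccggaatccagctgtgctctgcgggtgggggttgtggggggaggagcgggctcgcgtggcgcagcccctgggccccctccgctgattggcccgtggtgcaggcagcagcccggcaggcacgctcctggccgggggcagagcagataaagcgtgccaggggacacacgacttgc
Isl1: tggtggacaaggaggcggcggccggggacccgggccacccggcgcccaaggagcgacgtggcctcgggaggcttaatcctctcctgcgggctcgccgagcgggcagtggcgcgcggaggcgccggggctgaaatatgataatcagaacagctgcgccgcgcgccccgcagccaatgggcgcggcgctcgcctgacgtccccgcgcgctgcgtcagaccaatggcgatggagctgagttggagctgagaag
Sct: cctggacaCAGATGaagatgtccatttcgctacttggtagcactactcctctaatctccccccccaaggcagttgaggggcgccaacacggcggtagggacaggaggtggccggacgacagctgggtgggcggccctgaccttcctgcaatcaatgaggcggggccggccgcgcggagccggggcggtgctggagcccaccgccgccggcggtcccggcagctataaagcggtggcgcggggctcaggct
The table held 7 of the 9 genes, without *Insm1* and *Pax4*. The RefSeq start lay 7762 bases inside the mm9 annotated gene for *Rfx6*, 364 for *Chgb* and 115 for *Neurod1*. For *Chga* it lay at -28, before the annotated start. The *Rfx6* window is thus not the one before its annotated start. On both strands, 0 of the 7 windows held any of the TCF/LEF runs of letters searched for. These were CTTTGAA, the run CTTTGAT, the related run CTTTGTA and lastly CTTTGTT, and at least 1 of them stands in 14.9% of the 32526 promoters in the table. The letters CAGATG, of the E-box class that NEUROG3 and NEUROD1 bind, stood in 1 of 7, that of *Sct*, 242 bases before the start, against 14.4% of all promoters. The GC content was 71.2% in the *Neurog3* window, 71.2% in that of *Isl1* and 68% in that of *Sct*.

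Of the 9 genes, 8 had a lower mean in the mutants and *Sct* had a higher one. *Rfx6* was called lower, 1 of the 9, against 5.83% of all tested genes. The 5 members under the filter on low counts could not be called in this edgeR fit. By edgeR and by DESeq2 0 of the 9 were called higher, against 2.78% of tested genes in edgeR. Of the 4 that edgeR tested, 0 were higher at an unadjusted p under 0.05. *Neurod1*, *Pax4* and *Chgb* had no count in any mutant library. In 4 of the 9 genes, *Neurod1*, *Rfx6*, *Isl1* and *Chgb*, every mutant library lay below every wild type library, a pattern that 17.7% of the 17112 genes with a count showed. With 3 libraries against 3, an exact permutation test of a single gene cannot give a p below 0.1. Only 4 of the 9 passed the filter on low counts, namely *Neurod1*, *Rfx6*, *Isl1* and *Sct*, and of these *Neurod1* and *Isl1* passed through their wild type libraries alone, so that no count or median over the 4 is given. *Neurog3*, *Insm1*, *Pax4*, *Chgb* and *Chga* did not pass and are described by their counts.

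**Figure D1:**
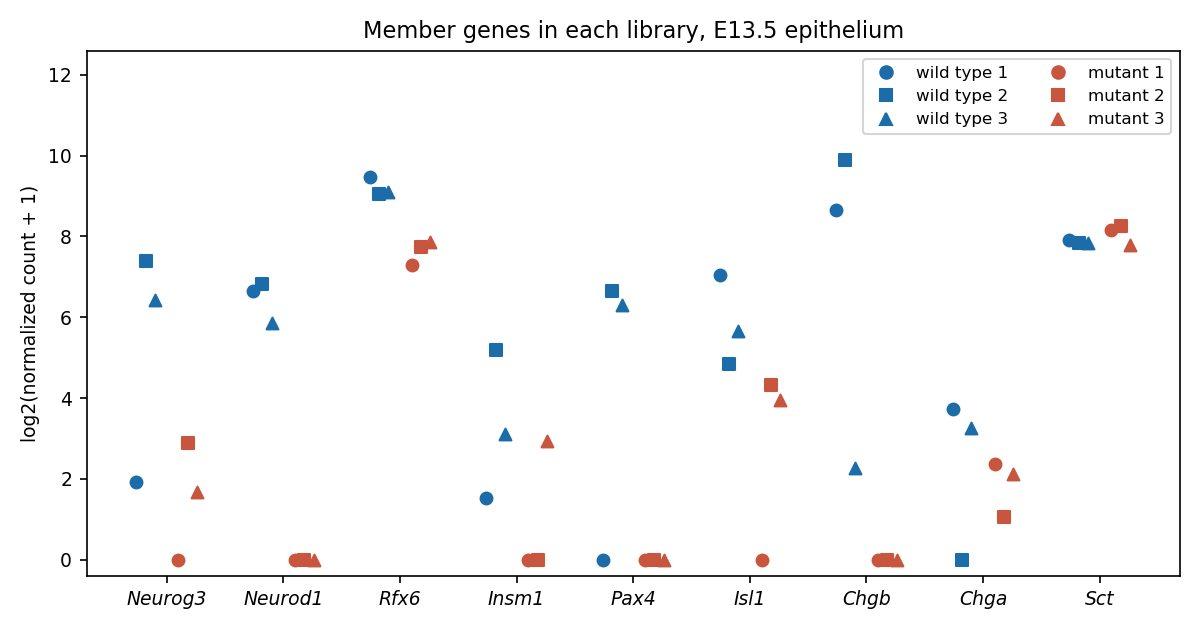
Normalized counts of the 9 genes (vertical axis, log2 of the count plus 1), with 1 point per library, blue for the 3 wild type and red for the 3 mutant libraries, and a marker shape for each replicate number. Neurod1, Pax4 and Chgb sit at 0 in all 3 mutants, Rfx6 forms a separate lower group in the mutants, and the Sct libraries of both genotypes overlap.

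*Neurog3* had 3 counts in wild type 1, 179 in wild type 2 and 90 in wild type 3, and the mutants had 0, 6 and 2. Its transcript was thus near the mutant level in 1 wild type library and far above it in the others. The normalized mean was 84.9 ± 81.9 (SD, n = 3) in wild type and 2.86 ± 3.24 in the mutants. The summed mutant counts came to 3.34% of the wild type sum after scaling for depth, with an exact binomial 95% interval of 1.43 to 6.68%. This interval covers counting error only, with every read taken as independent. It covers neither PCR copies nor the spread between libraries. Because wild type 1 overlapped the mutants, the exact two-sided permutation p was 0.2. The ratio rested on single libraries: mutant counts were 6.49% of wild type without wild type 2, 5.09% without mutant 1 and 1.25% without mutant 2.

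*Pax4*, a repressor that is switched on in *Neurog3*-expressing progenitors, followed the same division of the wild type libraries. The wild type libraries had 0, 107 and 82 counts, and each mutant had 0. Wild type 1 could not be set apart from the mutants on this gene. Against a floor of 3 counts over the mutant group, the wild type sum was at least 55.5-fold higher. This bound was at least 36.2-fold without wild type 2, 83.3-fold without wild type 1, and 36.4-fold and 36.9-fold without mutant 1 and mutant 2, where fewer mutant counts stand behind the same floor.

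*Neurod1*, which acts after *Neurog3* in the differentiating endocrine cell, was present in all wild type libraries, with 106, 121 and 60 counts, and had 0 counts in each mutant. The groups did not overlap. The normalized wild type mean was 89.6 ± 29.1, and the wild type sum was 84.2-fold above the floor of the mutants. The exact binomial 95% interval of the mutant level was 0 to 1.47% of wild type, counting error only. The difference passed the test (adjusted p = 6.8e-06, edgeR), but the mean over all 6 libraries was 44.8 normalized counts, under the minimum of 50, so the gene was not called. When a mutant library was left out the mean rose over that minimum and *Neurod1* was called lower in each of those 3 fits. The ratio to the floor was 55.3-fold without mutant 1 and 56.1-fold without mutant 2.

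*Rfx6*, a winged-helix factor that works both in early endoderm and in endocrine progenitors, had the most even values of the 6 factors. Its counts were 762, 571 and 576 for the wild type and 151, 200 and 210 for the mutants. All 3 mutants lay well under the lowest wild type library, yet the transcript was present in each of them. The normalized mean fell from 597 ± 101 to 200.2 ± 39.4, a log2 fold change of -1.58 (SE 0.18, adjusted p = 1.5e-05). The mutant level was 33.5% of wild type, with a model 95% interval of 25.7 to 43.7%. Leaving out any 1 library kept the call, with log2 fold changes from -1.69 to -1.42.

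*Isl1*, a LIM-homeodomain factor of endocrine and also of neuronal cells, had its highest count where *Neurog3* and *Pax4* had their lowest. The wild type libraries had 140, 30 and 52 counts and the mutants 0, 18 and 13. The groups did not overlap, though mutant 2 with 18 counts lay close to wild type 2 with 30. The normalized mean was 69.4 ± 54.4 for the wild type and 11.2 ± 9.96 for the mutants. The log2 fold change was -2.63 (SE 0.77, a mutant level of 5.20 to 50.1% of wild type as 95% interval) at an adjusted p of 0.019, over the threshold, and the mean over all libraries was 40.3, under the minimum of 50, so *Isl1* was not called. The adjusted p was 6.9e-04 in edgeR without the filter, 0.059 in its robust fit without the filter and 0.147 in DESeq2. Without wild type 1 the log2 fold change was -1.78 and the adjusted p 0.183, and without mutant 2 the log2 fold change was -3.28.

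*Insm1*, a zinc-finger factor of endocrine progenitors, was counted 2, 38 and 8 times in the wild type and 0, 0 and 6 times in the mutants. The groups overlapped, and wild type 2 held 78.9% of the wild type signal. The mutant sum was 14.2% of wild type (exact binomial 95% interval 4.97 to 33.2%, counting error only). It was 45.3% without wild type 2, 21.6% without mutant 1, 21.3% without mutant 2 and 0 without mutant 3. A difference of *Insm1* was therefore not established in these libraries.

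The granule genes had unlike values. *Chgb* reads numbered 432 in wild type 1 and 1020 in wild type 2, but wild type 3 held 4, and every mutant held 0. The groups did not overlap, by a margin of those 4 counts. The normalized mean was 453 ± 475 in wild type, so the SD exceeded the mean. The wild type sum was 427-fold above the floor of the mutants, but it pools libraries, and wild type 3 added 4 counts to it. The exact binomial 95% interval of the mutant level was 0 to 0.288% of wild type, counting error only. The ratio to the floor was 193-fold without wild type 2, and 280.3-fold and 284-fold without mutant 1 and mutant 2. *Chga* stayed near its limit of detection, with 13, 0 and 9 counts in wild type and 4, 1 and 3 in the mutants. Its mutant sum was 41.3% of wild type (exact binomial 95% interval 15.9 to 96.4%, counting error only), and it was 67.2% without wild type 1 and 27.4% without wild type 2. The groups overlapped on *Chga*, and no difference was established in these libraries.

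*Sct*, which encodes the hormone of duodenal S cells, was the only member with a higher mean in the mutants, and it did not pass the test. Its counts were 256, 246 and 241 for the wild type and 276, 287 and 198 for the mutants. The ranges overlapped, with mutant 3 under and mutants 1 and 2 over all wild type libraries. The normalized mean was 232 ± 6.27 in wild type and 269.7 ± 45.3 in the mutants, a log2 fold change of 0.21 (SE 0.18, adjusted p = 0.40). Its 95% interval of -0.17 to 0.60 corresponds to 88.9 to 152% of the wild type level, a range that does not overlap the interval of *Rfx6*. The difference between *Sct* and the other genes was not itself tested.

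For *Chgb*, *Pax4* and *Neurog3*, which are under the filter, the adjusted p changed with the tool and the variance model. Without the filter, where 5.23% of the 17112 genes were called lower, edgeR gave adjusted p-values of 1.5e-11 for *Chgb*, 7.8e-07 for *Pax4* and 1.8e-06 for *Neurog3*. The same counts gave 3.9e-04, 0.101 and 0.021 with DESeq2. With edgeR's robust fit, which lets a gene with discordant libraries keep its own larger variance, they gave 0.289, 0.259 and 0.146. It changed little for *Insm1*, at 0.127 in edgeR without the filter, 0.152 in DESeq2 and 0.137 in the robust fit. *Chga* gave 0.590 in edgeR and 0.576 in the robust fit, and DESeq2 gave no adjusted p for it. *Neurod1*, with more even wild type libraries, gave 3.9e-12 without the filter in edgeR, 2.4e-10 in DESeq2 and 6.8e-12 in the robust fit.

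The wild type libraries disagreed on which members they held. Wild type 1 held 62.9% of the wild type *Isl1* signal, 1.10% of that of *Neurog3* and none of *Pax4*. Wild type 2 held 65.4% of *Neurog3*, 56.1% of *Pax4* and 69.9% of *Chgb*, but 13.4% of *Isl1*. Wild type 3 held 33.5% of *Neurog3* and 43.9% of *Pax4*, and 0.280% of *Chgb*. *Neurog3* and *Pax4* therefore shared their pair of libraries, *Chgb* was found with *Neurog3* in 1 library and nearly without it in another, and *Rfx6* and *Sct* were spread almost evenly. The wild type libraries held between 19787517 and 20397278 counts in all. Pairs of libraries were also compared by a chi-square per gene, beyond the members. Wild type 3 stood at 16.8 from wild type 1 and 18.7 from wild type 2, against 8.82 between wild type 1 and wild type 2. It was also the wild type library nearest to each mutant, at 29.5 to 34.0. Wild type 1 stood at 41.4 to 54.7 from the mutants and wild type 2 at 43.9 to 57.5. Whether this bears on the low *Chgb* of wild type 3 was not tested.

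**Figure D2:**
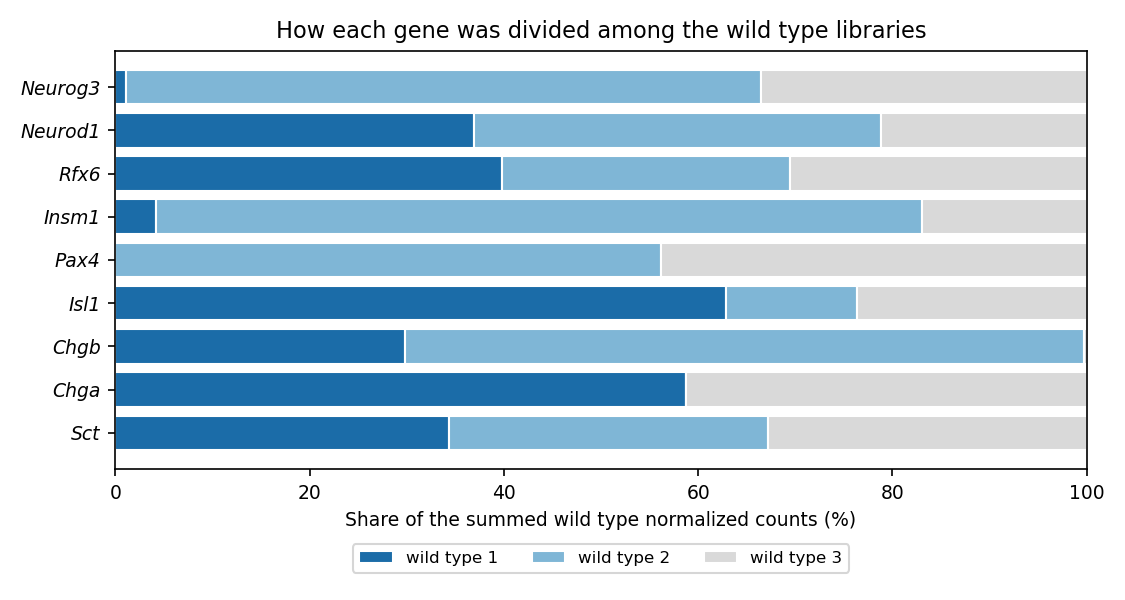
Share (percent, horizontal axis) of each gene's summed normalized wild type counts held by wild type 1 (dark blue), wild type 2 (light blue) and wild type 3 (grey), as stacked bars with 1 bar per gene. Sct and Rfx6 are close to equal shares, Neurog3 and Pax4 are nearly absent from wild type 1, Chgb is nearly absent from wild type 3, and Isl1 is mostly in wild type 1.

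Set beside genes of like abundance, this spread was over the 95th percentile for some members and under it for others. *Neurog3*, *Pax4* and *Isl1* had coefficients of variation between wild type libraries of 96.4%, 88.5% and 78.4%, whereas 1653 genes with a wild type mean of 50 to 150 had a median of 22.2% and a 95th percentile of 52.3%. *Neurod1*, in the same range, had 32.4%. *Chgb* had 105%, over the 95th percentile of 29.9% for means of 150 to 1000, where *Rfx6* had 16.9% and *Sct* 2.70%. *Insm1* at 120% and *Chga* at 90.5% lay under the 95th percentile of 124% for means of 5 to 50. Both were over the median of 45.7% and the upper quartile of 73.3% of that range. The wild type spread of *Neurog3*, *Pax4*, *Isl1* and *Chgb* was thus above that of 95% of genes of like abundance.

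Per kilobase of transcript, the wild type order was *Sct* (435 normalized counts per kb), *Rfx6* (173), *Chgb* (165), *Neurog3* (55.2), *Pax4* (43.2), *Neurod1* (32.8), *Isl1* (27.5), *Insm1* (4.83) and *Chga* (3.67). Only *Sct* was clear of its neighbour, with libraries from 428 to 449 against 154 to 206 for *Rfx6*. Every other pair of neighbours overlapped between libraries. In the mutants the order of those with signal was *Sct* (505), *Rfx6* (57.9), *Isl1* (4.42), *Neurog3* (1.86), *Chga* (1.51) and *Insm1* (0.713).

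Read by library, the wild type samples held a count of 8, 8 and 9 of the 9 genes, and the mutants of 3, 5 and 6. At 10 counts or more the numbers were 6, 8 and 6 in wild type and 2, 3 and 3 in the mutants. Leaving aside *Rfx6* and *Sct*, the other members added up to 696, 1495 and 305 counts in wild type 1, 2 and 3 and to 4, 25 and 24 in mutant 1, 2 and 3. *Chgb* made up 432 of the 696 and 1020 of the 1495 counts. On *Neurog3*, *Chga* and *Insm1* at least 1 mutant library had more counts than a wild type library, so the sums do not stand for each of the 7 genes.

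The genes with the closest pattern over the 6 libraries were found among 13791 genes, as the root mean square distance between centred log2 CPM values. *Neurog3* was nearest to *Slc2a12* at 0.64, *Gfra3* at 0.66 and *Pax4* at 0.70, and *Pax4* was nearest to *Gfra3* at 0.25. *Gfra3*, which encodes a receptor of the GDNF family, was counted 0, 112 and 115 times in the wild type and 0, 1 and 0 times in the mutants. *Neurod1* was nearest to *Crhbp* at 0.39 and *Nkx6-2* at 0.50, with 54, 69 and 49 and with 117, 164 and 116 wild type counts. For *Chgb* no gene came close: *Neurod1* was the nearest, followed by *Pzp* at 2.02 and *Fev* at 2.04. *Isl1* was nearest to *Ces1b* (0.48), *Insm1* to *Popdc2* (0.43), *Chga* to *9330182L06Rik* (0.38), *Rfx6* to *Ptpdc1* (0.11) and *Sct* to *P2rx4* (0.04). These distances describe 6 libraries that include the group difference, and carry no test.

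Other genes of the programme were taken from lists of 30 transcription factors, 25 hormones and 38 granule and secretion genes, the 9 members included. Of the 92 that the files name, 82 had a count and 37 were tested. The mutants had less of 30 and more of 7 of them, and the median log2 fold change was -0.57, against 54.3% lower and a median of -0.04 over all tested genes. These figures lean on the filter, because for 10 of the 37, among them *Neurod1*, *Isl1*, *Etv1*, *Syt13* and *Cplx2*, the mutant libraries alone did not reach the minimum, while this held of the wild type libraries for 1. Over the 25 with a mean of at least 50 normalized counts in all libraries together, a limit added after seeing the data, 19 were lower and 6 higher and the median was -0.33, against 52.2% lower and a median of -0.02 over the 10562 genes of that level. Of the 33 that are not members, 5 were called lower and 1 higher, against 5.83% and 2.78% of all tested genes.

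Among the transcription factors, 5 of 17 tested were called lower, against 5.83% of all tested genes. With a mean of at least 50, 11 of 12 were lower, at a median log2 fold change of -0.63. *Foxa2*, a forkhead factor of endoderm and of endocrine subtypes, fell from a normalized mean of 286 to 37.1, a log2 fold change of -2.94 (SE 0.29, adjusted p = 3.0e-06). *Pdx1*, which marks the duodenal and pancreatic endoderm as a whole, fell from 209 to 48.8 (log2 fold change -2.09, adjusted p = 1.8e-05). *Tead2*, a partner of YAP that is not particular to endocrine cells, fell from 621 to 293 (log2 fold change -1.08, adjusted p = 1.3e-04). *Tox3*, an HMG-box factor, fell from 341 to 208 (log2 fold change -0.71, adjusted p = 0.0070), a call that was lost without wild type 1 (adjusted p = 0.035), wild type 2 (0.039), mutant 1 (0.028), mutant 2 (0.019) or mutant 3 (0.027), and with the replicate number as a block (0.011). The abundant factors without a call were *Foxa1* (log2 fold change -0.44, adjusted p = 0.0052, under the fold threshold), *Bcl11a* (-0.20) and *Sox4* (-0.26).

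Of the granule and secretion genes, 1 of 17 tested was called lower and 1 higher, against 5.83% and 2.78% of all tested genes. The count called lower was thus close to the share over all genes. With a mean of at least 50, 8 of 12 were lower, at a median log2 fold change of -0.26. *Cpe*, carboxypeptidase E, which trims prohormones, fell from a normalized mean of 860 to 481 (log2 fold change -0.84, adjusted p = 0.0014), a call that was lost without wild type 1 (adjusted p = 0.013). *Rab3b*, a vesicle GTPase, rose from 113 to 230 (log2 fold change 1.02, adjusted p = 0.0019), a call that was lost without wild type 2 (0.0101) or mutant 3 (0.011). The abundant genes *Ddc* (log2 fold change -0.10), *Rab3d* (0.47, adjusted p = 0.012) and *Gch1* (-0.51, adjusted p = 0.021) were not called. Of the hormones only *Sct*, *Nmb* (log2 fold change -0.12, adjusted p = 0.86) and *Penk* (-1.56, adjusted p = 0.061) were tested, and the adjusted p of all 3 was over the threshold. *Gcg*, *Nts*, *Ppy*, *Vip* and *Galp* had no count in any library.

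**Figure D3:**
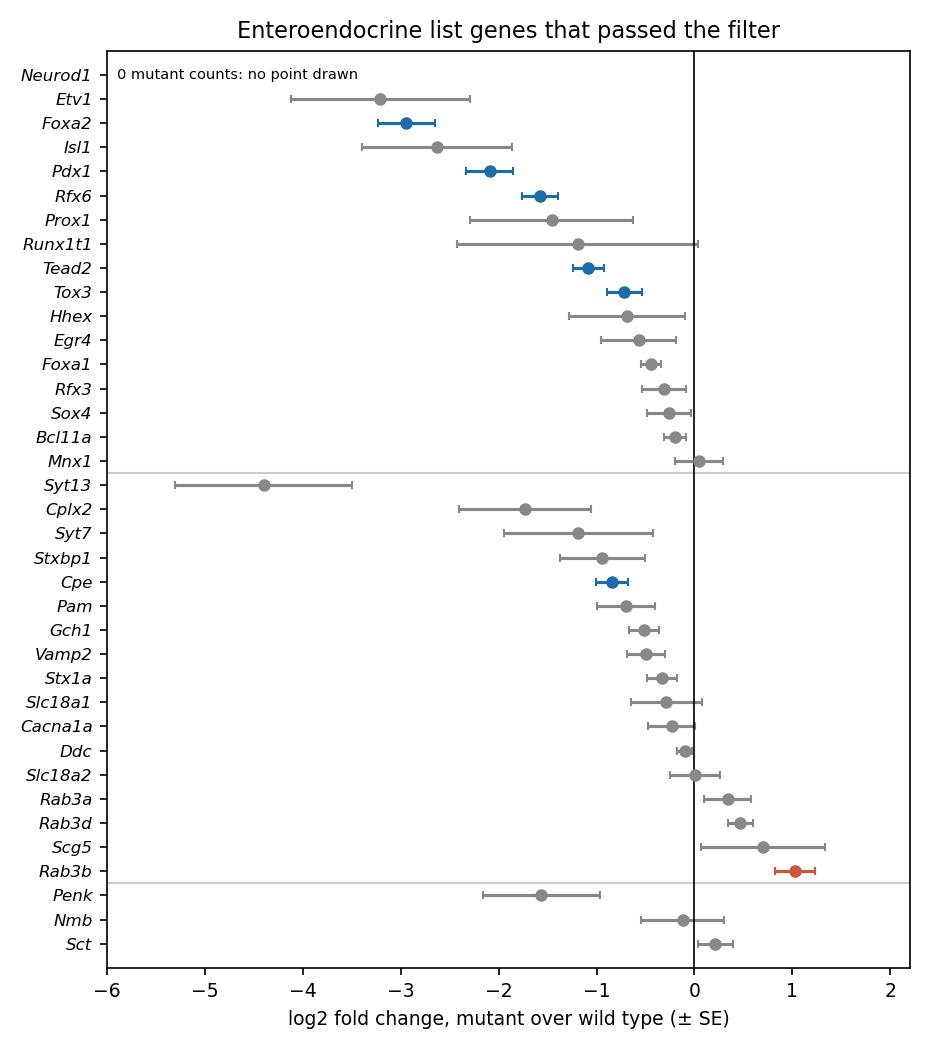
Log2 fold change, mutant against wild type, of the 37 tested genes of the 3 lists (transcription factors, granule genes and hormones from top to bottom), with bars of ± SE, blue for genes called lower, red for genes called higher and grey for the others. No point is drawn for Neurod1, which had 0 mutant counts. In all, 30 of the 37 genes are lower, 10 of the 37 passed the filter with mutant libraries under its minimum, and Rab3b is the only called gene over 0.

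The genes under the filter are given by library, and since the filter keeps out genes that are low in most libraries, their unevenness is a property of the selection. *Fev*, a factor of serotonin-producing cells, had 10, 73 and 0 counts in wild type and 0 in each mutant. *St18* had 15, 51 and 0 in wild type and 0, 0 and 1 in the mutants. The hormone gene *Pyy* had 116, 0 and 0 in wild type and 0 in each mutant. These values are a description, with no test. Of the 45 untested genes with a count, which include the 5 members under the filter, 12 had at least 10 counts in wild type 1, 11 in wild type 2, 4 in wild type 3, 2 in mutant 2 and 0 in mutants 1 and 3. Some genes were chosen after their values were seen. The prohormone convertase *Pcsk2* reached 30 and the convertase inhibitor *Pcsk1n* 17, both in wild type 1 only. The endocrine factor *Nkx2-2* had 1, 37 and 42 in wild type and 6, 0 and 0 in the mutants. Not every such gene was absent from the mutants. The convertase *Pcsk1* reached 12 in mutant 2, with 0 in mutants 1 and 3, against 24, 0 and 5 in wild type. The granule gene *Scg3* reached 10 in mutant 2 and 1 in mutant 3, against 40, 0 and 0 in wild type. These were the 2 genes with at least 10 counts in mutant 2. The sets differed between libraries, with 6 genes at 10 or more counts in wild type 1 alone and 4 in wild type 2 alone.

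**Figure D4:**
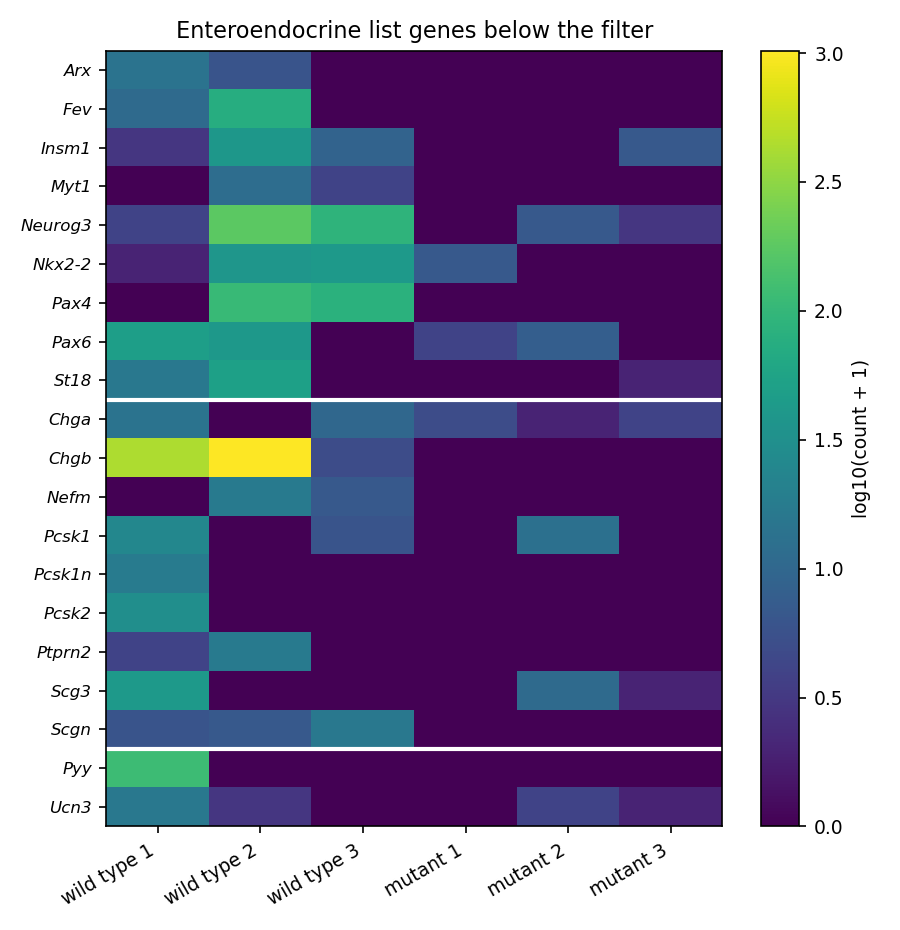
Raw counts (colour, log10 of the count plus 1) of the 20 list genes under the filter that had at least 10 counts in some library, in each of the 6 libraries. Wild type 1 and wild type 2 hold partly different genes, and the mutant columns are nearly empty.

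Markers of other cells that an EpCAM gate could hold were summed in each library, and their part in the results was not tested. Over all tested genes, 5.83% were called lower and 2.78% higher. The 22 pancreas genes ran from 420 to 516 normalized counts in wild type and 495 to 575 in the mutants, with 0 called by edgeR (1 at an unadjusted p under 0.05), and *Ptf1a*, *Nkx6-1*, *Ins1* and *Ins2* were at 0 in every library. The stomach genes ran from 1927 to 2249 in wild type and 800 to 880.3 in the mutants: 4 of 11 tested, *Nkx6-3*, *Nkx6-2*, *Cldn18* and *Gata5*, were called lower, with *Muc6* and *Trp63* at 0 throughout. The sum over this list was thus lower in every mutant than in every wild type library. *Gata5* leads the sum, with a normalized mean of 830 in wild type and 551 in the mutants. The study counts *Nkx6-2* and *Nkx6-3* among factors of enteroendocrine differentiation, and *Barx1* is also on the mesenchyme list. The sum therefore does not stand for stomach cells alone. Enteric neural genes ran from 537 to 715 in wild type and 436 to 605 in the mutants, with 1 called lower (*Gap43*) and *Elavl3*, *Dbh* and *Th* at 0. The mesenchyme list ran from 231 to 479 and 239 to 813, blood from 22.8 to 42.8 and 6.38 to 15.5, and endothelium from 13.1 to 28.9 and 14.4 to 37.2, with 0 mesenchyme genes called by edgeR (4 at an unadjusted p under 0.05). The epithelial list ran from 155852 to 165983 in wild type and 151197 to 155078 in the mutants, a sum that *Epcam* leads. In this list 6 of 8 genes had a negative log2 fold change, the median being -0.41, and *Cdh1* (-0.57), *Krt18* (-0.54) and *Cdx2* (-0.68) were called lower.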

How the data were processed

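RNA-sequencing read counts were used for the 6 libraries. Per the labels and the study's methods, the authors made cDNA from polyadenylated RNA with the SMARTer v4 kit. The submitters' processing notes name STAR 2.5.2b, featureCounts 1.5.1, DESeq2 1.18.1, deepTools and mm9. The authors deposited raw counts per gene, not normalized, 1 table per library. Strand use, litter and sex are not given in the sources used here. PCR copies carry no molecular identifiers, and binomial intervals and floors take every read as independent. They therefore cover neither PCR copies nor the spread between libraries.

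The tests used edgeR 4.0.16 under R 4.3.3 (TMM, filterByExpr with a minimum count of 10, glmQLFit and glmQLFTest on genotype). Whether replicates are separate embryos rests on the series' own description of them as biological. The fit recovered 93.5% of 108 genes simulated at a log2 change of 1 and 96.7% of 92 at 2, among 12501 genes. Every gene was simulated at the common dispersion of 0.0209, with changes only in genes with a mean of at least 50. These rates therefore do not apply to members under the filter, under that mean or with uneven wild type libraries. Gene positions are from GENCODE vM1 and near-identical copies were sought with BLAST+ 2.17.0. The study's RPKM criterion was replaced by the mean count of 50.

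The members and gene lists were chosen with earlier results of these data known. Named genes are the members, *Tcf7l1*, all called genes of the 3 enteroendocrine lists, the 3 most abundant uncalled genes of each, those under the filter with at least 50 counts in some library, and each member's nearest genes by pattern. Alternatives were DESeq2 1.42.0, other scalings, no filter, a robust fit, a replicate block, other thresholds and each library left out. The robust fit, the block and the left-out libraries within the fit without the filter, and the list tallies at a mean of at least 50, were chosen after seeing the data.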

Additional observations from a re-analysis of the deposited data

How the results depend on the processing

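No result changed direction under the alternatives run. Members called lower numbered 1 in the reported fit and 2 with DESeq2, without the filter and without the minimum mean, and ranged from 1 to 4 with 1 library left out. They were *Rfx6*, *Neurod1*, *Chgb* and *Neurog3* without mutant 2, and *Rfx6*, *Neurod1* and *Chgb* without mutant 1 or mutant 3. Without wild type 1 they were *Rfx6* and *Neurog3*, and without wild type 3 *Rfx6* and *Chgb*. With a smaller group the filter asks for fewer libraries, so members that it had kept out could be tested. Leaving out a mutant also raises the mean over all libraries of a gene that is low in the mutants. The larger member counts therefore cannot be read as stronger differences. The enteroendocrine list genes called lower numbered 6, with a range of 5 to 8 over the left-out libraries and 4 at a log2 fold change of 1, and those called higher numbered 1, with a range of 0 to 1. Over all genes, 729 were called lower and 348 higher. Leaving out a library gave 405 to 867 lower and 260 to 516 higher. Those called lower numbered 405, 406 and 867 without wild type 1, 2 and 3, and 526, 463 and 545 without mutant 1, 2 and 3. An adjusted p under 0.05 gave 1178 lower, and a log2 fold change of at least 1 gave 284 lower and 85 higher. Scaling by library size alone gave 200 higher and moved the median log2 fold change of all tested genes by -0.11, and calls that were higher fell from 32.3% to 17.3%.

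The replicate numbers did not pair the libraries: same-numbered libraries had correlations of deviations of 0.010, -0.045 and -0.018. With the replicate block, 691 genes were called lower, 339 higher and 1 member lower, and the list count was 5, with *Tox3* lost. *Isl1* then had an adjusted p of 0.045. For members under the filter, leaving out 1 library from the fit without it gave adjusted p-values from 1.0e-79 to 1.3e-07 for *Chgb*, and the robust fit gave 0.289. No library held more than 38 counts of *Insm1* or 13 of *Chga*, and wild type 2 alone held 78.9% of the wild type *Insm1* signal.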

Other observations

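Of the genes that act before *Neurog3*, 1 was called lower and 1 higher among 9 tested, against 5.83% and 2.78% of all tested genes. *Atoh1*, the factor that opens the secretory lineage, was counted 35, 33 and 24 times in the wild type and 25, 22 and 44 times in the mutants, with a log2 fold change of 0.18 (adjusted p = 0.82, edgeR). *Rbpj*, which encodes the DNA-binding partner of the Notch receptors, was called higher (log2 fold change 0.95, adjusted p = 0.0017), and *Sox9*, a progenitor factor, was called lower at -0.71 (adjusted p = 8.4e-05). *Hes1*, a Notch target, had a log2 fold change of -0.45 (adjusted p = 0.0013), under the fold threshold. Of the 12 listed genes of this kind 9 were tested, and the 7 others of these, *Atoh1* and *Hes1* included, were not called.

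Goblet cell genes, the other secretory list, summed to 2372 to 2624 normalized counts in wild type and 1191 to 1384 in the mutants. *Agr2* and *Fcgbp*, among 7 tested, were called lower, against 5.83% of all tested genes.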
